A study of Caenorhabditis elegans with 24 samples.

Results

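How much a transcript stands out in neurons over a reference was compared between 2 stages of the nematode Caenorhabditis elegans. For each probe set of the Affymetrix C. elegans GeneChip, the embryonic enrichment is the mean log2 intensity of the embryonic pan-neural arrays minus that of the embryonic reference arrays. The larval enrichment is the same difference for the larval arrays, and the stage difference is the embryonic enrichment minus the larval one. A positive stage difference means a larger enrichment in embryonic neurons, and a negative one a larger enrichment in larval neurons. The comparison uses 15 of the 24 samples of the series and 22548 of the 22625 probe sets on the array, those that are not spike-in or other array controls.

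The embryonic pan-neural group has 3 arrays. Embryos of strain NW1229 (evIs111), which makes GFP throughout the nervous system from the F25B3.3 promoter, were dissociated, their cells were cultured for 24 hours, and the GFP cells were sorted by flow cytometry before total RNA was isolated. The embryonic reference has 4 arrays of RNA from all viable cells of embryonic cultures. The study describes it as a profile obtained previously, and its methods do not name the strain of those cells. The larval pan-neural group has 3 arrays. Mid-L2 larvae of strain SD1241 (gaIs153), which make PAB-1, a protein that binds the poly(A) tail of mRNA, with a FLAG tag from the same promoter, were fixed with formaldehyde, and RNA bound to the tagged protein was pulled down with an anti-FLAG antibody. The larval reference has 5 arrays of RNA that bound nonspecifically in mock pull-downs from untagged wild-type N2 larvae. Each transgene is carried by 1 line, and the embryonic cells had been in culture and not in an embryo. Stage, culture, the way RNA was isolated and the kind of reference change together, so their parts in a stage difference cannot be told apart. In addition, fewer cells of a type and less RNA per cell cannot be told apart in these bulk samples.

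Neurons are born mainly in the embryo, where precursors leave the cell cycle, take on an identity under homeobox and bHLH transcription factors and send out axons along guidance cues. In the larva most of them work as mature cells that release transmitters at synapses from clear vesicles and neuropeptides from dense-core vesicles. The neuropeptides of the worm fall into FMRFamide-like (flp), neuropeptide-like (nlp) and insulin-like (ins) families, and most act on G protein-coupled receptors. The neurons were checked by 11 widely used neuronal genes, of which 9 were called higher in larval pan-neural than in larval reference arrays and 1 in embryonic pan-neural than in embryonic reference arrays. Their summed level was 13.61 to 13.86 (log2) on the embryonic pan-neural arrays against 12.52 to 13.30 on the embryonic reference arrays, and 14.10 to 14.53 on the larval pan-neural arrays against 12.39 to 12.97 on the larval reference arrays. The probe set for rgef-1, the gene whose promoter (F25B3.3) drives both transgenes, lay between 3.41 and 4.02 on all 15 arrays, so it could not serve as a check. The 3′ minus 5′ log2 signal of control probes, a measure of RNA integrity, was lower on all embryonic than on all larval arrays for 1 of 2 controls. For Gapdh it was 0.78 ± 0.14 in embryonic pan-neural and 1.16 ± 0.12 in embryonic reference arrays, and 2.74 ± 0.14 in larval pan-neural and 2.20 ± 0.56 in larval reference arrays (SD, n = 3, 4, 3 and 5). For Act it was 3.56 ± 0.37 in embryonic pan-neural and 3.33 ± 0.21 in embryonic reference arrays, and 3.82 ± 0.03 in larval pan-neural and 3.23 ± 1.00 in larval reference arrays, with overlap between the stages. Its part in the stage differences was not tested.

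The stages shared part of their enrichment, and more of the stage differences that passed the test were negative than positive. A stage difference was called where limma's test over all 22548 probe sets gave a Benjamini-Hochberg adjusted p under 0.01 and the difference was at least 1.5-fold. By this rule, 423 probe sets (1.88%) had a higher enrichment in embryonic than in larval neurons and 705 (3.13%) a lower one. Counted by gene, with the brightest probe set taken for each of 17118 genes, 331 genes (1.93%) were higher and 543 (3.17%) lower. For each called probe set the 3 embryonic pan-neural arrays, each set against the mean of its reference, lay on 1 side of the 3 larval ones, as did 21.3% of all probe sets above and 19.7% below. The number of higher calls depended on single arrays: it was 264 without embryonic pan-neural array 1, 245 without embryonic reference array 2, 240 without larval pan-neural array 1, 208 without larval pan-neural array 3 and 265 without larval reference array 2. The number of lower calls was 401 without larval pan-neural array 3. With only the 2 larval pan-neural and 2 larval reference arrays that were hybridized on the same day, 29 probe sets were called higher and 55 lower. All 423 and 705 kept the sign of their difference, but they had been selected on data that include these same arrays, so this is no independent check. No hybridization day of the embryonic arrays held both embryonic groups, so day and group cannot be told apart there. Chips differed in the same way. Those of the embryonic pan-neural arrays were of lots 1 and 2, and those of the embryonic reference and all larval arrays of lot 3. Any effect of the lot would enter each embryonic enrichment and, through it, each stage difference, and its size was not tested.

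The same stage difference arose in several ways. Each stage's own arrays were tested by the same rule, which called 442 probe sets (1.96%) as enriched and 627 (2.78%) as depleted in embryonic neurons, and 1372 (6.08%) and 754 (3.34%) in the larval pull-down. By gene these rates were 2.08% and 2.74% in the embryo and 6.83% and 3.6% in the larva. The embryonic calls rested on few arrays and numbered 24 and 89 without embryonic pan-neural array 1 and 40 and 133 without embryonic reference array 2. Of the 543 genes with a lower stage difference, 179 were called only as depleted from embryonic neurons by the embryonic arrays' own test, 214 only as enriched in larval neurons by the larval arrays' own test, and 121 by neither test. The rest were called by both tests, 22 in the same direction and 7 in opposite directions. Of the 331 genes with a higher stage difference, 73 were called only as enriched in embryonic neurons, 138 only as depleted from the larval pull-down and 116 by neither, and 1 was called by both tests in the same direction and 3 in opposite ones. The probe sets with a lower difference had a median embryonic enrichment of −1.07 and a median larval enrichment of 0.35 on the log2 scale, and those with a higher difference had medians of 0.78 and −0.67. Across all probe sets the embryonic and larval enrichments correlated with a Pearson r of 0.410. Across the 9009 with a mean of at least 6 (log2) in a group of each stage, r was 0.495. Both are given as a description since all probe sets share the same arrays. Of the probe sets called as enriched by the embryonic arrays, 50.7% were also called by the larval arrays, and of those called by the larval arrays, 16.3% were also called by the embryonic ones. Among these 224 shared probe sets, 13 had a called stage difference. Of the genes with a called difference, 202 had further probe sets on the array, 244 in all, of which 81 were called the same way, none the opposite way, and 216 had the same sign.

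**Figure D1:**
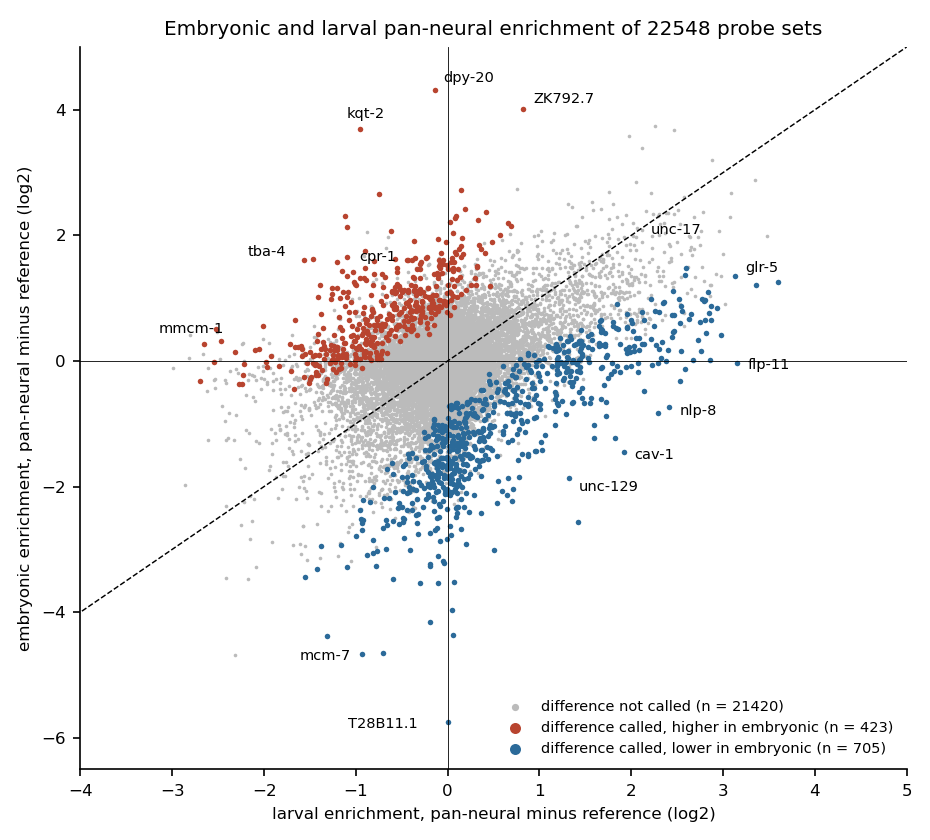
Each point is 1 of 22548 probe sets, with its embryonic enrichment (vertical axis) against its larval enrichment (horizontal axis), both as log2 pan-neural minus reference. Red points mark the 423 probe sets with a called higher stage difference, blue points the 705 with a called lower one, and the dashed line equal enrichment. Many red points lie left of 0 on the larval axis and many blue points below 0 on the embryonic axis, which are genes depleted at 1 stage.

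The largest difference in favour of embryonic neurons belonged to kqt-2, which encodes a KCNQ-type potassium channel. It read 9.72, 9.13 and 9.75 (log2) on the embryonic pan-neural arrays, against 6.40, 5.49, 5.30 and 6.14 on the embryonic reference arrays. It read 5.07, 6.62 and 6.14 on the larval pan-neural arrays, against 6.75, 6.83, 7.26, 6.96 and 6.72 on the larval reference arrays. The 3 embryonic pan-neural arrays stood above all of their references, while the larval pan-neural arrays lay below all of theirs. Its stage difference was 4.66 ± 0.45 (SE), a 25.3-fold difference in enrichment (adjusted p = 3.15e-05). A second kqt-2 probe set was called in the same direction (2.05 ± 0.28, adjusted p = 0.000412), while another, whose group means stayed between 4.27 and 4.64, was not (0.19 ± 0.20).

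The cuticle gene dpy-20 and its neighbour ZK792.7, whose ends overlap in RefSeq's annotation of assembly WBcel235, were next to each other in the data as well. The level of dpy-20 was 9.47, 10.04 and 8.82 on the embryonic pan-neural arrays, against 4.58, 5.29, 5.40 and 5.24 on the embryonic reference arrays. On all 8 larval arrays it lay between 5.22 and 5.75, low in pan-neural and reference samples alike, and its stage difference was 4.46 ± 0.34 (adjusted p = 4.17e-06). ZK792.7 read 12.17, 12.28 and 11.94 on the embryonic pan-neural arrays, against 8.37, 8.07, 8.20 and 7.84 on the embryonic reference arrays. Its larval pan-neural arrays read 9.04, 8.92 and 9.04, against 7.90, 8.0, 8.24, 8.51 and 8.22 on the larval reference arrays. No group overlapped its own reference, and the enrichment was 4.01 ± 0.15 in the embryo and 0.82 ± 0.14 in the larva (difference 3.19 ± 0.21, adjusted p = 1.86e-06). The genes on either side of the pair, let-60 and T22B3.3, had embryonic enrichments of 0.52 ± 0.20 and 0.28 ± 0.16, which did not pass the test. Cloned dpy-20 DNA is widely used as a co-transformation marker when worm transgenes are made. The study's methods do not say whether the GFP line carries such copies, and their part in these 2 values was not tested.

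For other genes the difference came from the larval side. The gene mmcm-1, for a methylmalonyl-CoA mutase, read 9.96, 9.63 and 9.75 on the embryonic pan-neural arrays and 9.66, 9.66, 9.12 and 9.44 on the embryonic reference arrays, which overlapped. It read 7.84, 8.03 and 8.02 on the larval pan-neural arrays, against 10.54, 10.19, 10.69, 10.29 and 10.43 on the larval reference arrays, with a wide gap between the groups. Its larval enrichment was −2.47 ± 0.13 and its stage difference 2.78 ± 0.21 (adjusted p = 4.17e-06). The alpha-tubulin gene tba-4, described with the genes of opposite direction, differed by 3.18 ± 0.40. Among genes that were low at the larval stage, sid-5, for an endosomal protein needed in systemic RNA interference, had an embryonic enrichment of 2.73 ± 0.30 and a stage difference of 2.59 ± 0.41 (adjusted p = 0.00104).

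The largest differences in the other direction were embryonic depletions. T28B11.1 read 6.29, 5.61 and 5.91 on the embryonic pan-neural arrays, against 11.75, 11.91, 11.30 and 11.78 on the embryonic reference arrays. Its larval pan-neural arrays (9.28, 9.48 and 9.39) lay within the range of the larval reference arrays (9.20, 9.24, 10.16, 8.70 and 9.59). The stage difference of −5.75 ± 0.37 (adjusted p = 1.86e-06) was thus carried by the embryonic arrays. Its other probe set was called in the same direction with a smaller difference (−1.09 ± 0.23, adjusted p = 0.00642). The gene elp-1, for an EMAP-like protein that binds microtubules, read 5.96, 5.75 and 5.40 on the embryonic pan-neural arrays, against 8.82, 8.74, 8.38 and 8.94 on the embryonic reference arrays. Its larval values of 6.41, 6.83 and 7.16 (pan-neural) and 6.48, 5.87, 6.25, 6.55 and 6.31 (reference) overlapped, and the stage difference was −3.52 ± 0.28 (adjusted p = 6.20e-06).

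**Figure D2:**
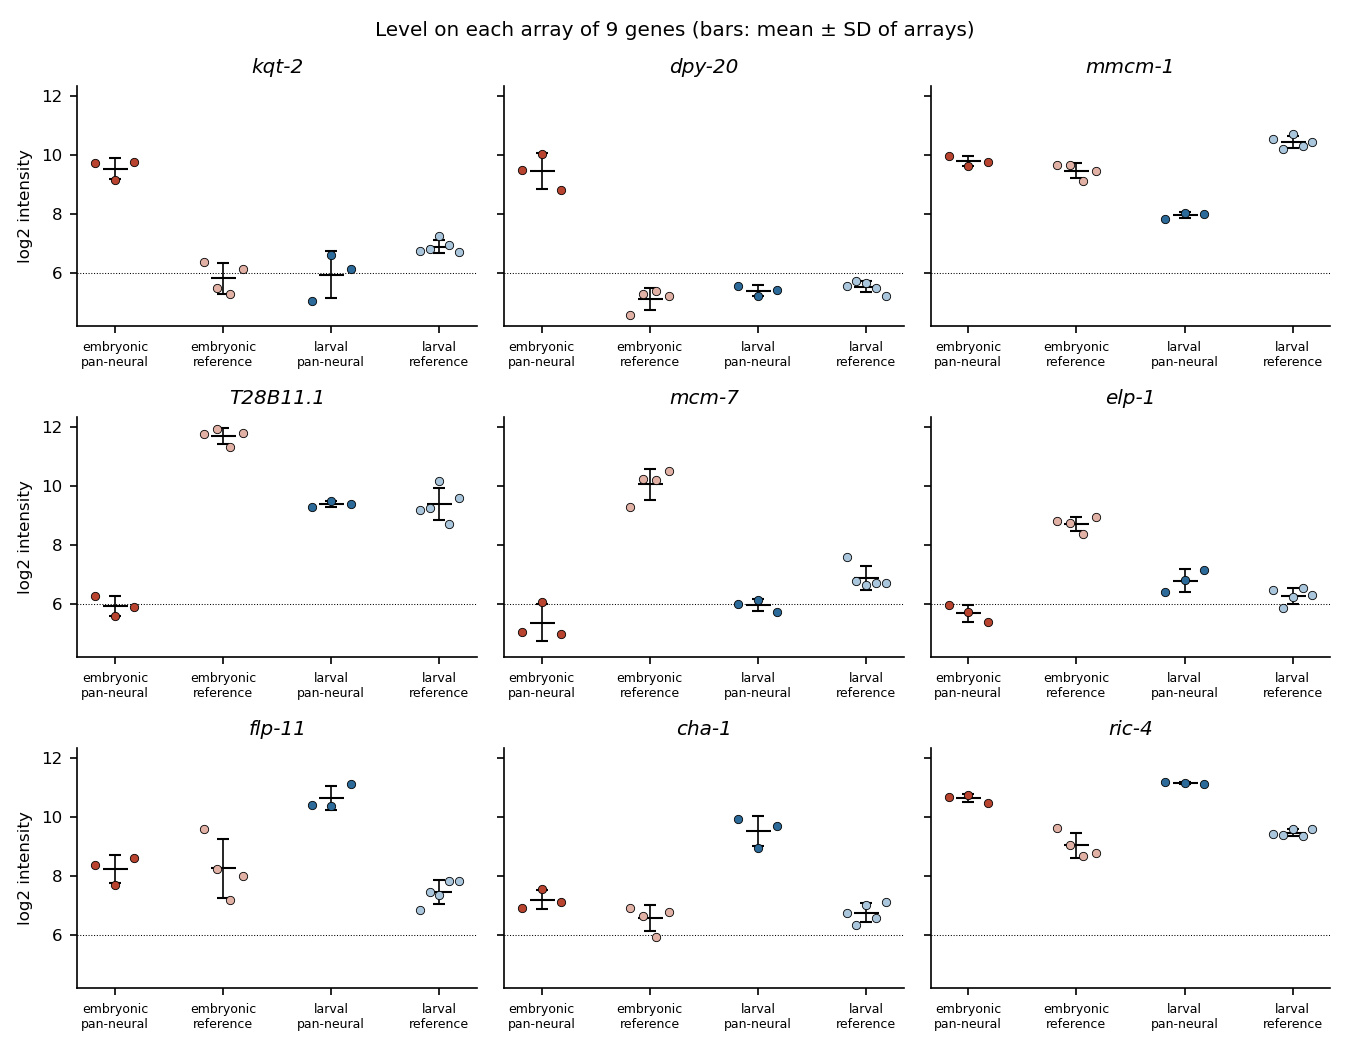
Each point is the log2 intensity of 1 array for 9 genes, by group from left to right: embryonic pan-neural, embryonic reference, larval pan-neural and larval reference (bars, mean ± SD; n = 3, 4, 3 and 5; dotted line, 6). In the embryo, kqt-2 and dpy-20 stand above their reference on the 3 pan-neural arrays, while T28B11.1, mcm-7 and elp-1 lie below theirs. In the larva, flp-11 and cha-1 stand above their reference on the pan-neural arrays. Levels are to be compared within a stage only. ric-4 stands above its reference by a similar amount at both stages.

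Part of the neuropeptide genes had a smaller enrichment in embryonic than in larval neurons, and none had a called difference the other way. Of 25 flp genes measured, 22 had a stage difference below 0, with a median of −0.68 against 0.05 over all genes, and 7 (28%) were called lower and none higher. These 7, flp-6, flp-9, flp-10, flp-11, flp-13, flp-17 and flp-18, were each called as enriched by the larval arrays and as neither enriched nor depleted by the embryonic ones. Of all 25, 21 were called as enriched in the larva and 3 in the embryo. The count of 7 was 3 without larval pan-neural array 3 and 4 without embryonic pan-neural array 2, embryonic reference array 3, larval pan-neural array 1 or larval reference array 2 or 3.

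The most different of them was flp-11. Its embryonic pan-neural arrays read 8.36, 7.70 and 8.62 and its embryonic reference arrays 9.58, 8.25, 7.21 and 8.01. Its larval pan-neural arrays read 10.41, 10.37 and 11.09, against 6.84, 7.47, 7.35, 7.84 and 7.82 on the larval reference arrays. The embryonic groups overlapped and the larval groups were far apart. The difference was −3.19 ± 0.58 (adjusted p = 0.00279), and it missed the threshold without larval pan-neural array 3 (adjusted p = 0.0119). For flp-10 the embryonic values of 7.29, 7.17 and 6.57 lay below the reference values of 8.04, 8.15, 7.66 and 7.73. Its larval values of 8.23, 7.83 and 8.65 lay above the reference values of 6.26, 6.23, 6.47, 6.85 and 6.74, and the difference was −2.61 ± 0.31 (adjusted p = 0.000167). The values for flp-6 and flp-18 were −2.72 ± 0.37 and −2.11 ± 0.32, and both calls stood with each array left out in turn. In contrast, the calls for flp-9, flp-13 and flp-17, with differences of −1.73 ± 0.36, −1.83 ± 0.40 and −1.88 ± 0.42, were each lost without larval pan-neural array 1 or 3, and in all without 10, 11 and 11 of the 15 arrays in turn. Some flp genes had near-equal enrichment at the 2 stages: flp-12, for example, a member singled out after its values were seen, was at 2.08 ± 0.35 in the embryo and 2.11 ± 0.15 in the larva. The brightest probe set of flp-1 was not called (−0.68 ± 0.30), nor was another (−0.58 ± 0.24, adjusted p = 0.129). A further flp-1 probe set was called (−2.15 ± 0.47, adjusted p = 0.0082).

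**Figure D3:**
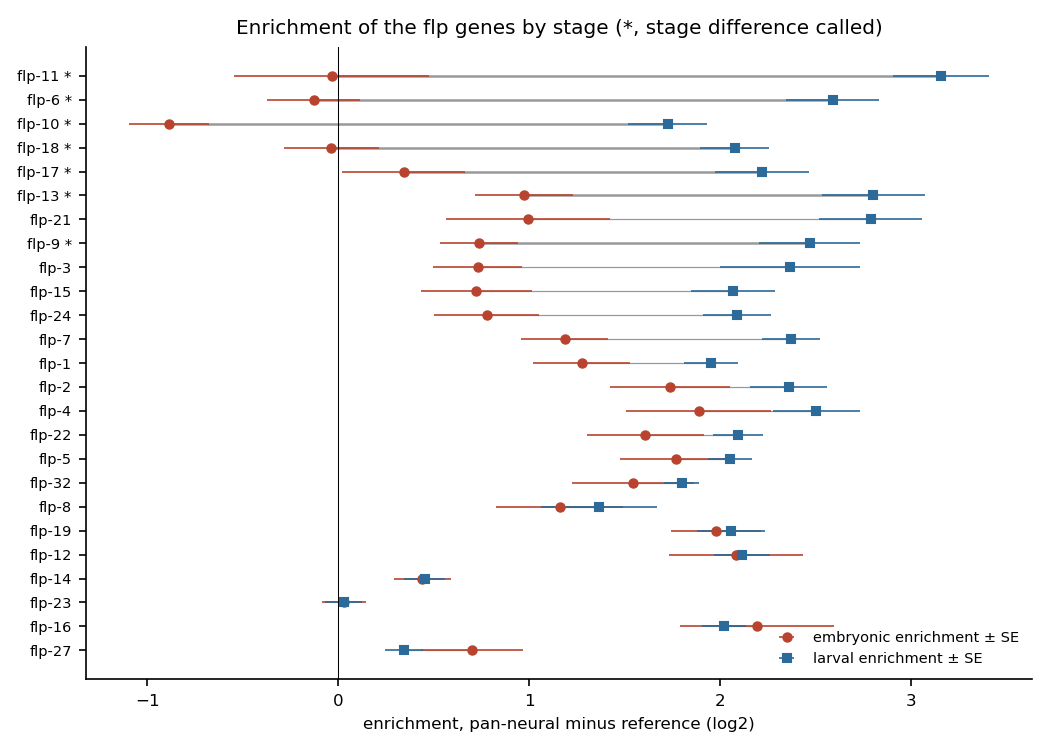
Embryonic enrichment (red circles) and larval enrichment (blue squares) of 25 flp genes, as log2 pan-neural minus reference ± SE, joined by a line and ordered by the stage difference. An asterisk marks the 7 genes with a called difference, whose larval enrichments lie between 1.72 and 3.16 and embryonic enrichments between −0.88 and 0.97.

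Of 48 nlp genes outside the epidermal antimicrobial cluster, 7 (14.6%) were called lower and none higher, with a median stage difference of −0.71 (11 lower without larval pan-neural array 2). nlp-8 read 7.21, 7.79 and 7.81 on the embryonic pan-neural arrays and 7.42, 8.92, 8.09 and 8.90 on the embryonic reference arrays, with overlap. It read 9.09, 8.46 and 9.44 on the larval pan-neural arrays, against 6.15, 6.50, 6.49, 7.03 and 6.77 on the larval reference arrays, where the groups were apart. Its difference was −3.14 ± 0.47 (adjusted p = 0.000739). The differences of the other 6, nlp-5, nlp-15, nlp-57, nlp-62, nlp-69 and nlp-89, lay between −2.21 ± 0.31 for nlp-89 and −1.52 ± 0.20 for nlp-57. Among them nlp-69 was low on all 7 embryonic arrays (3.50 to 4.64), so its embryonic enrichment of 0.77 ± 0.15 rests on signal near background. Of 18 epidermal nlp and caenacin genes, which encode antimicrobial peptides of the skin, none was called, beside 1.93% higher and 3.17% lower among all genes. However, 8 of the 18 were low at both stages and 1 was low at neither, so the lack of calls in this short list carries little weight.

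Insulin-like peptides followed in part. Of 24 measured, 4 (16.7%, beside 3.17% of all genes) were called lower and none higher. They were ins-17, ins-21, ins-23 and ins-24. The median stage difference over all 24 was −0.10 (−0.79 over the 13 of them that were not low at either stage). ins-17 read 9.12, 8.86 and 8.97 on the embryonic pan-neural arrays, against 8.40, 7.64, 8.0 and 7.94 on the embryonic reference arrays. It read 10.84, 10.52 and 10.76 on the larval pan-neural arrays, against 8.39, 8.56, 8.44, 8.63 and 8.46 on the larval reference arrays. It stood above its reference at both stages, and by more in the larva (difference −1.23 ± 0.21, adjusted p = 0.00161). ins-21 and ins-23 were low in the embryo, and a second ins-24 probe set was not called (−0.40 ± 0.30).

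Most genes whose products make and pack these peptides had no called difference. Of 18 genes for peptide processing and dense-core vesicles, 1 was called lower (5.56%, beside 3.17% of all genes) and none higher. Their median was −0.44 (2 lower without embryonic pan-neural array 2 or embryonic reference array 3). sbt-1, whose 7B2 protein assists the convertase, was enriched by 1.99 ± 0.27 in the embryo and 2.01 ± 0.18 in the larva (difference −0.03 ± 0.33, adjusted p = 0.968). The proprotein convertase gene egl-3 and the carboxypeptidase E gene egl-21 had differences of −1.15 ± 0.40 and −0.76 ± 0.40, which did not pass the test (adjusted p = 0.0724 and 0.234). A second egl-3 probe set had a difference of −0.12 ± 0.41. On the receiving side, 7 of 92 neuropeptide receptor genes (7.61%) were called lower and 1 higher, with a median of −0.24 (4 lower without larval pan-neural array 3). The 7 were ckr-1, frpr-21, npr-2, npr-25, npr-43, sprr-2 and tkr-3, each called as enriched by the larval arrays. npr-25 read 6.87, 6.42 and 6.80 on the embryonic pan-neural arrays, against 6.27, 6.09, 5.80 and 6.05 on the embryonic reference arrays. It read 8.25, 7.88 and 8.71 on the larval pan-neural arrays, against 6.09, 5.89, 6.14, 6.23 and 6.38 on the larval reference arrays. Both pan-neural groups lay above their references, and the difference was −1.49 ± 0.25 (adjusted p = 0.00168).

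Most genes of the synapse, like most genes on the array, had no called stage difference. Of 38 synaptic vesicle and active zone genes, 24 were called as enriched in the larva and 7 in the embryo. Of the 38, 2 had a called stage difference, both lower (5.26%, beside 3.17% of all genes), and the median was −0.20. ric-4, the SNAP-25 gene of the vesicle fusion complex, read 10.67, 10.74 and 10.47 on the embryonic pan-neural arrays, against 9.63, 9.04, 8.68 and 8.77 on the embryonic reference arrays. It read 11.16, 11.13 and 11.10 on the larval pan-neural arrays, against 9.41, 9.38, 9.58, 9.36 and 9.58 on the larval reference arrays. The groups were apart at both stages, with enrichments of 1.60 ± 0.23 in the embryo and 1.66 ± 0.09 in the larva (difference −0.07 ± 0.24, adjusted p = 0.893). A dimmer ric-4 probe set had a difference of −1.81 ± 0.51, which did not pass the test (adjusted p = 0.0318). The differences for rab-3, a vesicle-associated small GTPase, and for snt-1, the calcium sensor synaptotagmin, were −0.21 ± 0.39 and −0.15 ± 0.38 and did not pass either. Second probe sets of rab-3 (−0.38 ± 0.33) and snt-1 (−1.18 ± 0.43) were not called, and the value for snt-1 thus depends on the probe set. The 2 called genes were sng-1, for synaptogyrin (−1.48 ± 0.26, adjusted p = 0.00225), and snb-1, for synaptobrevin (−0.86 ± 0.17, adjusted p = 0.00393). The snb-1 call was lost without embryonic pan-neural array 1 or 2 or larval pan-neural array 1 or 3 (adjusted p = 0.0101 to 0.0145), while another snb-1 probe set was called with −2.62 ± 0.44.

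The cholinergic genes unc-17 and cha-1, which share a locus and a promoter region in the worm, gave different results. unc-17, the vesicular acetylcholine transporter, read 8.54, 8.27 and 9.21 on the embryonic pan-neural arrays, against 7.23, 6.51, 6.63 and 6.76 on the embryonic reference arrays. It read 10.60, 9.56 and 10.06 on the larval pan-neural arrays, against 7.71, 7.90, 8.09, 7.96 and 8.12 on the larval reference arrays. It stood above its reference at both stages, with a difference of −0.23 ± 0.34 that did not pass (adjusted p = 0.716). cha-1, choline acetyltransferase, read 6.93, 7.56 and 7.11 on the embryonic pan-neural arrays and 6.93, 6.65, 5.94 and 6.79 on the embryonic reference arrays. It read 9.92, 8.96 and 9.67 on the larval pan-neural arrays, against 6.74, 6.36, 7.04, 6.57 and 7.12 on the larval reference arrays. Its embryonic groups touched and its larval groups did not, and the difference was −2.13 ± 0.37 (adjusted p = 0.00210). The difference between the 2 genes was itself not tested. The choline transporter gene cho-1 was also called (−1.14 ± 0.21, adjusted p = 0.00299), though not without embryonic pan-neural array 1 or larval pan-neural array 1 or 3.

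For the other transmitters, 2 of 7 GABA genes (28.6%, beside 3.17% of all genes) were called lower, and none of 7 glutamate genes was called. The GABA transporter gene snf-11 had a difference of −1.98 ± 0.39 (adjusted p = 0.00477), and its call was lost without embryonic pan-neural array 3, embryonic reference array 2, larval pan-neural array 1 or 3 or larval reference array 2. The vesicular GABA transporter gene unc-47 differed by −1.27 ± 0.28 (adjusted p = 0.00850), a call that stood only when embryonic reference array 3, larval pan-neural array 2 or larval reference array 5 was the one left out. Of 10 monoamine genes, 1 (10%, beside 1.93% of all genes) was called higher. This was cat-4, the GTP cyclohydrolase that makes a cofactor of dopamine and serotonin synthesis. It read 7.62, 7.53 and 7.15 on the embryonic pan-neural arrays, against 6.26, 5.52, 5.81 and 5.70 on the embryonic reference arrays. Its larval arrays read 8.02, 8.44 and 7.96 (pan-neural) and 8.24, 8.94, 8.50, 8.30 and 8.86 (reference). It was thus above its reference in the embryo and overlapped it in the larva (difference 2.04 ± 0.29, adjusted p = 0.000580).

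Receptors and channels on the neuronal surface had a few lower calls each. Of 20 ionotropic glutamate and GABA receptor genes 3 (15%) were called lower, of 27 nicotinic receptor subunits 2 (7.41%), of 19 monoamine receptors 2 (10.5%) and of 70 potassium channels 3 (4.29%), beside 3.17% of all genes. The 1 higher call in these 4 lists was kqt-2. Without larval pan-neural array 3, 1 ionotropic and 1 nicotinic receptor gene were called lower, and 6 potassium channels were without larval pan-neural array 2. The glutamate receptor subunit glr-5 was enriched at both stages. It read 9.50, 9.27 and 9.16 on the embryonic pan-neural arrays, against 8.24, 7.49, 8.09 and 8.01 on the embryonic reference arrays. It read 10.87, 10.62 and 11.14 on the larval pan-neural arrays, against 7.64, 7.85, 7.57, 7.86 and 7.84 on the larval reference arrays. The gap was wider in the larva, at 3.13 ± 0.13 against 1.35 ± 0.19 in the embryo (difference −1.77 ± 0.24, adjusted p = 0.000379). lgc-53, for a ligand-gated chloride channel subunit, had a difference of −1.55 ± 0.22, and the serotonin receptor gene ser-7 one of −1.55 ± 0.25. The nicotinic subunit acr-15 was near background on all 7 embryonic arrays (3.95 to 4.16) and read 6.99, 6.61 and 6.83 on the larval pan-neural arrays, against 4.17 to 4.94 on the larval reference arrays. Its difference was −2.27 ± 0.21 (adjusted p = 2.86e-05).

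Among cilium and chemoreceptor genes, as among all genes, few stage differences were called. None of 46 genes for cilium transport and the BBSome, which build the sensory endings, had a called difference. Among all genes 1.93% were called higher and 3.17% lower, so few calls would be looked for in a list of this size. Their median stage difference was 0.15, with 28 called as enriched in the larva and 10 in the embryo. Of 1276 chemoreceptor genes, 5 (0.392%) were called higher and 6 (0.470%) lower, but 1014 of them were low at both stages and 91 were low at neither, so most could not show a difference. The lower calls numbered 0 without larval pan-neural array 3, where the 5 higher calls became 2. Of 15 touch neuron genes, 13 had a difference below 0, with a median of −0.54, and 1 was called lower (6.67%, beside 3.17% of all genes). It was mec-7, the beta-tubulin of touch receptor neurons (−1.72 ± 0.35, adjusted p = 0.00586). That call was lost without embryonic pan-neural array 2 or 3, embryonic reference array 3, larval pan-neural array 1 or 3 or larval reference array 1, 2 or 3, and the gene's other probe set was not called (−0.89 ± 0.32).

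Transcription factors that specify neurons had, where called, a lower enrichment over the reference in embryonic than in larval neurons. Of 103 homeobox genes, 7 (6.80%) were called lower and none higher, with a median of −0.16. ceh-43, the Distal-less homolog, read 6.34, 6.45 and 6.59 on the embryonic pan-neural arrays, against 7.66, 8.43, 8.14 and 7.94 on the embryonic reference arrays. It read 6.48, 6.31 and 6.45 on the larval pan-neural arrays, against 5.27, 5.80, 5.85, 5.64 and 5.67 on the larval reference arrays. It was called below its reference in the embryo and above it in the larva (difference −2.35 ± 0.23, adjusted p = 3.97e-05). vab-15, the Msx homolog, was at −1.23 ± 0.22 in the embryo, which did not pass that stage's test, and at 1.59 ± 0.23 in the larva, which did (difference −2.82 ± 0.34, adjusted p = 0.000183). Its other probe set, with group means of 4.32 to 4.57, was not called (−0.25 ± 0.16). The other 5 were ceh-34 (sine oculis family), ceh-36 (Otx class), ceh-58, the LIM gene lin-11 and unc-4, which sets the identity of A-class motor neurons. Their differences lay between −2.06 ± 0.32 for lin-11 and −1.07 ± 0.16 for ceh-58. The other probe set of lin-11 was not called (−0.67 ± 0.25). Without larval pan-neural array 3, unc-4 missed the threshold (adjusted p = 0.0128).

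Of 33 bHLH genes, 4 (12.1%, beside 3.17% of all genes) were called lower and none higher. They were cnd-1, hlh-2, hlh-13 and unc-3, a COE factor of cholinergic motor neurons that was counted with this list. Without larval pan-neural array 3, 1 was called lower, and 2 were without embryonic reference array 2 or 3 or larval reference array 1 or 2. cnd-1, the NeuroD homolog that acts in neuronal precursors, read 6.73, 5.86 and 6.34 on the embryonic pan-neural arrays, against 7.67, 8.39, 7.85 and 8.23 on the embryonic reference arrays. Its larval arrays read 6.09, 6.48 and 6.34 (pan-neural) and 5.73, 5.82, 6.22, 6.15 and 6.10 (reference). The embryonic groups were apart and the larval ones overlapped (difference −2.03 ± 0.29, adjusted p = 0.000607). hlh-2, the Daughterless homolog that pairs with other bHLH proteins, had an embryonic enrichment of −1.66 ± 0.29 and a difference of −1.64 ± 0.32 (adjusted p = 0.00373), which missed the threshold without larval pan-neural array 3 (adjusted p = 0.0143). The other probe sets of hlh-2 (−0.68 ± 0.32) and unc-3 (−0.02 ± 0.20) were not called. Of 259 nuclear hormone receptor genes, 6 (2.32%) were called higher and 3 (1.16%) lower, beside 1.93% and 3.17% of all genes. The higher calls were thus near the share of all genes, and 128 of the 259 were low at both stages and 72 at neither. There were 3 higher calls without embryonic pan-neural array 1 or 3, larval pan-neural array 3 or larval reference array 2 or 3. nhr-116 read 8.30, 8.09 and 8.87 on the embryonic pan-neural arrays, against 7.08, 6.36, 6.76 and 6.66 on the embryonic reference arrays, and was level with its reference in the larva (0.09 ± 0.12). Its difference was 1.62 ± 0.26 (adjusted p = 0.00111).

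Genes of axon guidance and of the matrix around axons had a median difference of −0.52 over 59 genes, and 8 (13.6%) were called lower and none higher (5 lower without embryonic pan-neural array 3 or larval pan-neural array 1 or 3). unc-129, a TGF-β ligand that guides motor axons, read 6.21, 6.13 and 5.63 on the embryonic pan-neural arrays, against 7.64, 8.13, 7.74 and 7.93 on the embryonic reference arrays. It read 6.96, 7.31 and 7.71 on the larval pan-neural arrays, against 5.91, 6.26, 5.65, 6.06 and 6.17 on the larval reference arrays. Depleted in the embryo and enriched in the larva, it differed by −3.19 ± 0.27 (adjusted p = 1.19e-05). zig-4 and zig-3, secreted immunoglobulin proteins that hold axons in place, differed by −2.75 ± 0.35 and −1.90 ± 0.30. For nid-1, the basement membrane protein nidogen, the embryonic pan-neural arrays read 6.0, 5.66 and 5.02, against 7.79, 7.86, 7.50 and 8.16 on the embryonic reference arrays, and the larval groups overlapped (difference −1.87 ± 0.31, adjusted p = 0.00155). The ephrin gene efn-4 differed by −1.37 ± 0.23, and its other probe set was not called (−0.31 ± 0.20). The remaining 3 calls were weaker. The ADAMTS-like gene madd-4 (−1.22 ± 0.23) lost its call without embryonic pan-neural array 3 or larval pan-neural array 1 or 3, and its other probe set read 1.28 ± 0.44 (adjusted p = 0.0733). The semaphorin gene smp-1 (−1.23 ± 0.25) lost its call without 9 of the 15 arrays in turn, and the synaptic specificity gene syg-2 (−1.93 ± 0.42) without 12, among them larval pan-neural arrays 1 to 3 for both. A second smp-1 probe set was not called (−0.28 ± 0.29). In contrast, lad-2, an L1-type adhesion molecule, was enriched by 1.73 ± 0.25 in the embryo and 1.73 ± 0.16 in the larva, though its 4 other probe sets had enrichments of at most 0.32 in the embryo and 0.14 in the larva.

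A few genes were called by both stages' own tests in opposite directions. By probe set, 6 were higher in embryonic neurons and lower in the larval pull-down than in their references, and 9 the reverse. With 1 probe set per gene, 3 and 7 remained. tba-4, an alpha-tubulin, read 9.06, 8.45 and 8.53 on the embryonic pan-neural arrays, against 7.55, 6.88, 6.72 and 7.12 on the embryonic reference arrays. It read 7.50, 8.49 and 7.93 on the larval pan-neural arrays, against 9.39, 9.71, 9.17, 10.26 and 9.17 on the larval reference arrays. gst-14, a glutathione S-transferase, and cpr-1, a cathepsin B-like protease, behaved the same way, with differences of 2.59 ± 0.27 and 2.46 ± 0.22.

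Among the 7 genes of the reverse kind, cav-1, for the membrane protein caveolin, differed most. It read 9.96, 10.07 and 9.52 on the embryonic pan-neural arrays, against 11.00, 11.59, 11.40 and 11.23 on the embryonic reference arrays. It read 8.73, 8.52 and 8.38 on the larval pan-neural arrays, against 5.92, 6.61, 7.06, 6.45 and 7.08 on the larval reference arrays. The enrichments of −1.46 ± 0.19 in the embryo and 1.92 ± 0.25 in the larva gave a difference of −3.38 ± 0.34 (adjusted p = 4.26e-05). unc-129 and zig-4 were described with axon guidance and ceh-43 with the homeobox genes. The others were F13E9.11 (−3.06 ± 0.29), R11A5.3 (−2.77 ± 0.32) and pqn-70, which encodes a protein rich in glutamine and asparagine (−2.45 ± 0.28).

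**Figure D4:**
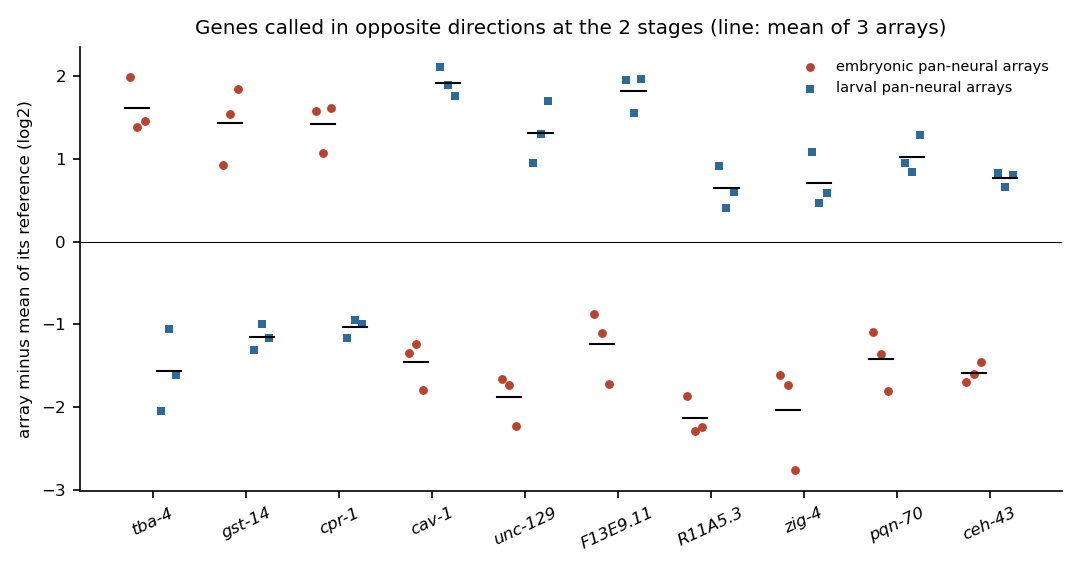
Each point is 1 pan-neural array minus the mean of its reference (log2) for the 10 genes called in opposite directions, embryonic arrays as red circles and larval arrays as blue squares (line, mean of 3 arrays). For tba-4, gst-14 and cpr-1 the embryonic arrays lie above 0 and the larval arrays below 0, and for the other 7 genes the order is turned.

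Genes of dividing cells made up another share of the lower calls. Of 91 cell cycle and DNA replication genes, 13 (14.3%) were called lower and 1 higher, with a median stage difference of −0.57. Of the 13, 11 were called as depleted by the embryonic arrays only, mcm-5 at both stages and smc-4 at neither, and over the whole list 29 were called as depleted in the embryo and 5 in the larva. The count of 13 was 20 without embryonic reference array 1, 6 without embryonic reference array 2 or larval pan-neural array 3, 8 without embryonic pan-neural array 3 and 7 without embryonic pan-neural array 1, embryonic reference array 3, larval pan-neural array 1 or 2 or larval reference array 2. mcm-7, a subunit of the replicative helicase, read 5.08, 6.09 and 4.99 on the embryonic pan-neural arrays, against 9.29, 10.21, 10.20 and 10.51 on the embryonic reference arrays. It read 6.01, 6.14 and 5.74 on the larval pan-neural arrays, against 7.61, 6.78, 6.65, 6.72 and 6.70 on the larval reference arrays. It was below its reference at both stages, by 4.67 ± 0.36 in the embryo and 0.93 ± 0.22 in the larva (difference −3.74 ± 0.43, adjusted p = 0.000133). The mitotic kinase gene cdk-1 differed by −1.49 ± 0.27 and the mitotic cyclin gene cyb-3 by −1.95 ± 0.25. rpa-2, for a single-strand DNA-binding protein of replication, went the other way (1.59 ± 0.25, adjusted p = 0.00105).

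Of 35 histone genes, 3 (8.57%) were called lower and 1 (2.86%) higher, beside 3.17% and 1.93% of all genes. Their median was 0.06 (5 lower without embryonic reference array 1, and 2 higher without embryonic pan-neural array 2). The linker histone genes hil-2, hil-3 and hil-5 were called lower, with differences from −2.48 ± 0.36 for hil-5 to −1.21 ± 0.20 for hil-2. The higher call was his-71, a histone H3.3 gene of the kind used outside replication, read 8.40, 8.27 and 8.51 on the embryonic pan-neural arrays, against 6.75, 6.08, 5.70 and 5.51 on the embryonic reference arrays. Its larval arrays read 8.07, 8.22 and 8.20 (pan-neural), against 7.44, 7.96, 7.74, 7.97 and 7.62 (reference). The gap was larger in the embryo (difference 1.96 ± 0.31, adjusted p = 0.00109).

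Beside these results stand the levels of markers of dividing cells and of other tissues. The summed level of 5 markers of dividing cells was 9.26 to 9.79 on the embryonic pan-neural arrays against 11.55 to 12.16 on the embryonic reference arrays, and 9.50 to 9.68 on the larval pan-neural arrays against 10.02 to 10.40 on the larval reference arrays. That of 9 body wall muscle markers was 9.74 to 10.17 on the embryonic pan-neural arrays against 11.27 to 12.02 on the embryonic reference arrays, and 13.40 to 14.11 on the larval pan-neural arrays against 14.19 to 14.59 on the larval reference arrays. That of 8 intestinal markers was 9.83 to 10.16 on the embryonic pan-neural arrays against 9.90 to 11.02 on the embryonic reference arrays, and 13.02 to 13.29 on the larval pan-neural arrays against 13.64 to 14.19 on the larval reference arrays. None of the muscle or intestinal markers lay under 6 in all 4 groups. The part of other cell types in the stage differences was not tested.

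Of 38 body wall muscle genes, 4 (10.5%, beside 3.17% of all genes) were called lower and none higher. Each of the 4 was depleted by the embryonic arrays' own test only (1 lower without larval pan-neural array 3, and 2 without most other single arrays). unc-87, a calponin-related protein of the thin filament, read 7.07, 6.93 and 5.99 on the embryonic pan-neural arrays, against 9.38, 9.73, 9.08 and 8.93 on the embryonic reference arrays. It read 10.74, 11.29 and 10.92 on the larval pan-neural arrays, against 11.52, 11.39, 11.38, 11.82 and 12.12 on the larval reference arrays. It was below its reference at both stages and by more in the embryo (difference −1.95 ± 0.37, adjusted p = 0.00318). Of its 2 other probe sets 1 was called (−1.95 ± 0.36) and 1 was not (−1.56 ± 0.42). The troponin genes mup-2 (−1.61 ± 0.35) and pat-10 (−1.67 ± 0.37) lost their calls without 12 and 13 of the 15 arrays in turn, and dim-1 (−1.43 ± 0.27) did so without larval pan-neural array 3 (adjusted p = 0.0107). A second dim-1 probe set was not called (−0.44 ± 0.38).

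Intestinal genes had more higher than lower calls. Of 41, 6 (14.6%) were called higher and 1 lower, with a median of 0.31 over all of them and −0.08 over the 21 that were not low at either stage, and all 6 were called as depleted from the larval pull-down. They were cpr-1, cpr-4, cpr-5, ftn-2, ges-1 and lys-1. cpr-5, a cathepsin B-like protease, lay between 4.15 and 4.74 on all 7 embryonic arrays. It read 9.24, 10.15 and 9.68 on the larval pan-neural arrays, against 11.09, 11.41, 11.28, 11.85 and 10.97 on the larval reference arrays. Its stage difference of 1.85 ± 0.29 (adjusted p = 0.00109) thus combines a larval depletion of −1.63 ± 0.24 beside an embryonic signal near background, as was the case for cpr-4 and for ges-1 and lys-1, an esterase and a lysozyme of the gut. The calls for cpr-4, ftn-2, ges-1 and lys-1 were each lost without larval pan-neural array 1, and the count of 6 was 2 without it and 3 without embryonic pan-neural array 1 or 3 or larval pan-neural array 3. The lower call was spp-10, a saposin-like protein, at −3.07 ± 0.33 for its brightest probe set, while another probe set read 0.78 ± 0.25 and was not called.

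Among housekeeping genes, none of 62 ribosomal protein genes had a called difference, beside 1.93% higher and 3.17% lower among all genes. Of 33 proteasome subunits, 30 had a difference above 0, with a median of 0.50. Called higher were 2 (6.06%, beside 1.93% of all genes), pbs-7 (1.22 ± 0.23) and rpt-1 (1.10 ± 0.23). Leaving out larval pan-neural array 1 ended both calls, and that of rpt-1 ended without 11 of the 15 arrays in turn, while the count was 5 without embryonic reference array 1 and 4 without larval reference array 5. A second rpt-1 probe set was not called (0.65 ± 0.37). pab-1, the gene whose protein is tagged in the larval transgene, read 11.96, 12.25 and 11.14 on the embryonic pan-neural arrays, against 12.35, 12.40, 12.43 and 12.65 on the embryonic reference arrays. It read 12.83, 12.38 and 12.91 on the larval pan-neural arrays, against 10.56, 11.13, 11.22, 12.10 and 11.74 on the larval reference arrays. Its difference was −2.03 ± 0.43 (adjusted p = 0.00693), a call that ended without any 1 of 9 arrays, larval pan-neural arrays 1 and 3 among them. Of its other probe sets 1 was called (−1.27 ± 0.21) and 1 was not (−0.58 ± 0.15, adjusted p = 0.0182). Transcripts of the transgene and of the native gene cannot be told apart by this probe set.

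**Figure D5:**
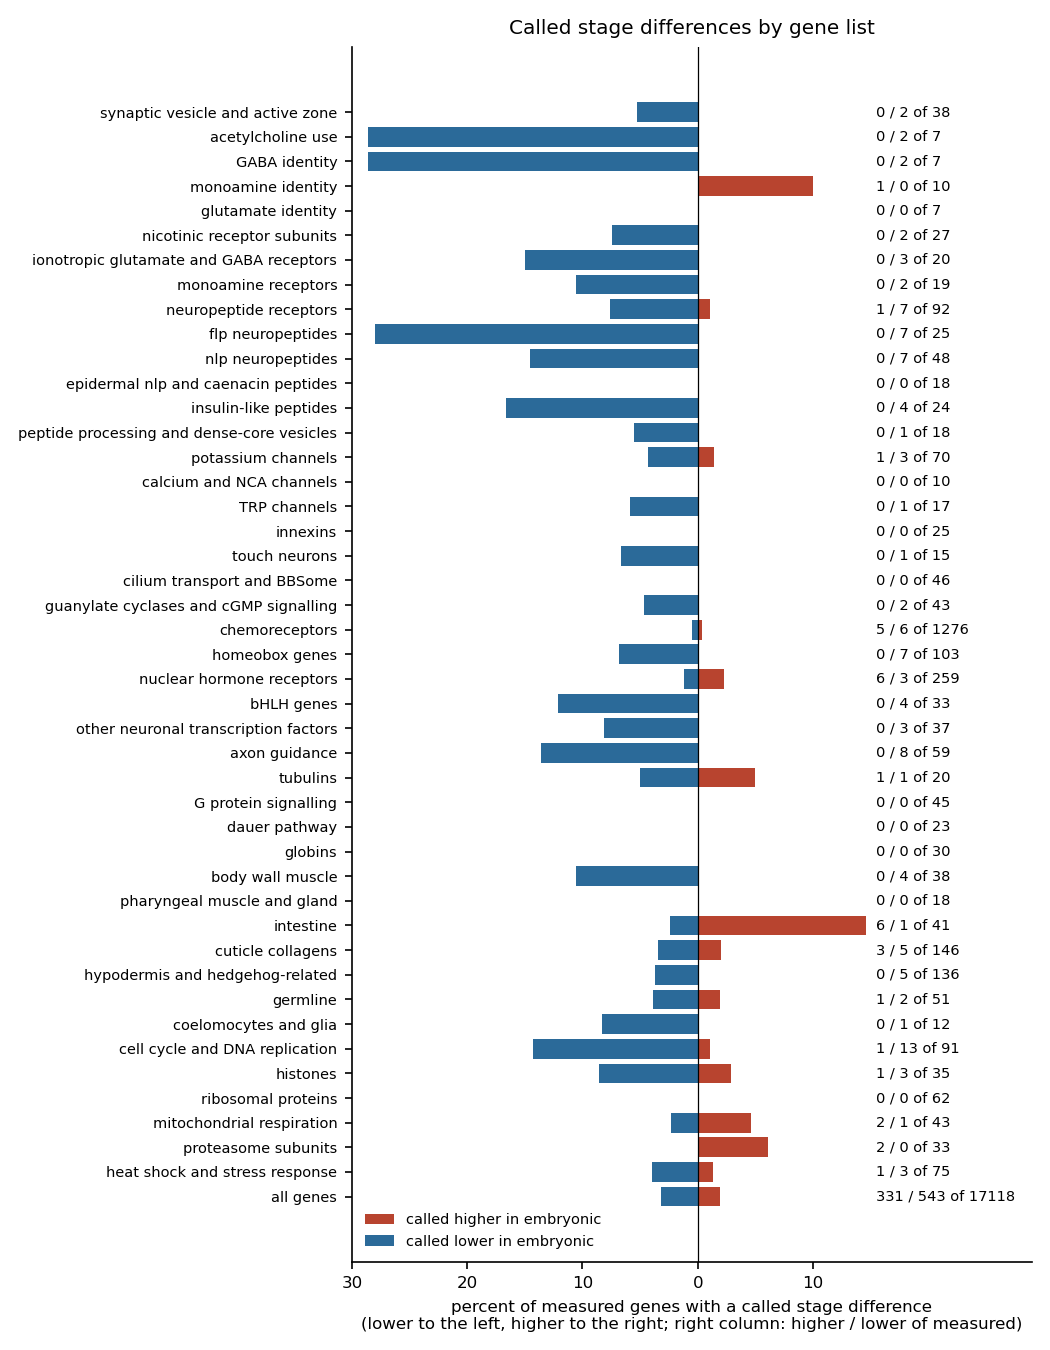
Bars give the percentage of the measured genes of 44 lists, and of all 17118 genes, with a called stage difference, lower to the left in blue and higher to the right in red, with the counts at the right. The longest bars to the left are those of acetylcholine use and GABA identity (28.6%, 2 of 7 genes each) and of the flp genes (28%, 7 of 25), the longest to the right is that of the intestine (14.6%), and all genes stand at 3.17% lower and 1.93% higher.

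Some genes were enriched to almost the same degree at both stages. The 6 genes called as enriched by both stages' own tests with the smallest stage difference were lad-2, F57C7.4, hecw-1, C43H6.6, R10H10.4 and nssp-12, with differences between −0.02 ± 0.27 and 0.02 ± 0.26. R10H10.4 read 6.46, 5.93 and 6.85 on the embryonic pan-neural arrays, against 4.37, 3.92, 4.18 and 3.94 on the embryonic reference arrays. It read 8.13, 7.82 and 7.78 on the larval pan-neural arrays, against 5.78, 5.70, 5.35, 5.69 and 5.58 on the larval reference arrays. The gap was 2.31 ± 0.22 in the embryo and 2.29 ± 0.13 in the larva. hecw-1, for a HECT-type ubiquitin ligase, was enriched by 1.65 ± 0.23 in the embryo and 1.66 ± 0.17 in the larva. A dimmer hecw-1 probe set had enrichments of 0.39 in the embryo and 0.46 in the larva. Dimmer probe sets of F57C7.4 (0.09 and 0.02) and C43H6.6 (0.12 and 0.07) had little enrichment at either stage. With a median standard error of 0.227 over all probe sets, stage differences well under 1 on the log2 scale were mostly not detectable with these array numbers.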

How the data were processed

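The deposited values are linear intensities per probe set, which the authors obtained by robust multi-array analysis (RMA) of 3 sets of arrays separately after 2 rounds of RNA amplification. None of the sources names a version of RMA. The other deposited records hold scanner and fluidics settings and were read for hybridization days and chip lots. The labels place larval reference arrays 1 to 3 in the embryonic set, but their quantiles followed the larval pan-neural arrays (largest gap 0.0888 to 0.230, log2) and not the embryonic ones (0.520 to 0.678), so they were used with the larval arrays.

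Intensities were log2 transformed and fitted with limma 3.58.1 in R 4.3.3, with 1 mean for each of 4 groups over 15 arrays, the stage difference as a contrast and Benjamini-Hochberg adjustment over 22548 probe sets, 77 array controls being left out. Each stage was also fitted alone, with 7 embryonic and 8 larval arrays. A call needed an adjusted p under 0.01 and a 1.5-fold difference. A gene was called low at a stage where its mean log2 intensity was under 6 in both groups. SE is limma's moderated standard error and SD the spread between arrays. Because the sets were normalized separately, levels were compared within a stage only. The labels call the arrays of a group biological replicates, and p-values measure the spread between them, so their number limits the precision. Squared correlations between replicate arrays were 0.918 to 0.983.

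Of the probe sets, 20766 had 1 gene name, 887 several and 895 none, and 20701 matched RefSeq (WBcel235). For each of 17118 genes the probe set with the highest mean over the 15 arrays was taken. Named genes were the 10 largest called differences each way, the 4 largest each way among genes low at 1 stage, the genes of opposite direction, the 6 most equal of the genes enriched at both stages, the 2 called genes of each direction with the smallest p in each of 44 gene lists and the least different member, and genes the study names. Other genes were named after their values were seen. The members and lists were chosen with earlier results of these data known. The fits were tested on simulated data. Alternatives covered normalization, weights, filters, thresholds, blocks, hybridization day and leaving out each array.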

Additional observations from a re-analysis of the deposited data

Results flagged for a closer look

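In the larval or embryonic reference groups of the genes given array by array, 6 of 102 groups held 1 array that stood apart from the others, and chance gives about 1 in 20. For mcm-7, larval reference array 1 read 7.61 (log2) and the others 6.65 to 6.78. For F13E9.11, embryonic reference array 2 read 10.89 and the others 10.59 to 10.64. For R11A5.3, embryonic reference array 1 read 9.51 against 10.57 to 10.67, and larval reference array 1 read 5.81 against 5.68 to 5.72. For the linker histone gene hil-5, larval reference array 3 read 8.96 against 9.29 to 9.36, and for the nidogen gene nid-1, larval reference array 4 read 7.71 against 7.22 to 7.33.

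The pan-neural enrichment differed between the stages, by limma's test of the difference itself, for 423 probe sets with a higher and 705 with a lower embryonic enrichment. It had opposite called directions at the stages for tba-4 (stage difference 3.18), gst-14 (2.59), cpr-1 (2.46), cav-1 (−3.38), unc-129 (−3.19), F13E9.11 (−3.06), R11A5.3 (−2.77), zig-4 (−2.75), pqn-70 (−2.45) and ceh-43 (−2.35).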

How the results depend on the processing

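No gene value that was called changed its sign under any alternative run, and of 6508 gene values under alternatives 5300 kept their side of the threshold, 1201 lost a call and 7 gained one. The alternatives reuse the arrays on which the calls were made, so a kept sign is no independent check. The counts of calls moved more. The 423 higher and 705 lower stage differences became 1331 and 1877 with array weights, 1219 and 1569 at an adjusted p under 0.05 with no fold minimum, 29 and 55 with larval arrays of 1 hybridization day, 231 and 168 with those of the other days, and 102 and 160 with the larval references of set 2 alone. With hybridization day as a random block 268 were called higher, and the lower count stayed within 1.5 times. Leaving out single arrays gave 208 to 489 higher and 401 to 917 lower.

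The embryonic counts of 442 and 627 became 1855 and 1968 with array weights, 121 and 220 with the random block, 208 and 285 after adding 32 to the intensities, and 1613 and 1733 at the looser threshold, and single arrays left out gave 24 to 566 and 89 to 762. The larval counts of 1372 and 754 became 2231 and 2029 at the looser threshold, 0 and 0 by limma with arrays of 1 day (2552 and 2748 at an unadjusted p under 0.05), 500 and 283 with those of the other days and 351 and 33 with the set 2 references. Adding 32 gave 416 lower, and single arrays left out gave 887 to 1343 higher and 198 to 882 lower. Where these counts moved, the cause was not tested. Settings that drop arrays also differ from the main fit in the number of arrays.

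With the replicate number as a block, 200 and 355 stage differences, 168 and 271 embryonic and 731 and 252 larval probe sets were called. The deviations of same-numbered arrays correlated at 0.049, 0.174 and 0.333 in the embryonic and 0.149, 0.078 and −0.234 in the larval set. Differently numbered arrays were not compared in this way, so these values do not settle whether the numbers pair the samples.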
